A study of Mus musculus with 3 samples.

Results

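Langerhans cells (LCs), the antigen-presenting cells that live among the keratinocytes of the epidermis, were examined here as the small set whose transcripts carried Ccr7 and Fscn1. A cell was counted as positive when it held at least 2 UMIs (unique molecular identifiers, each standing for 1 captured RNA molecule) of Ccr7, at least 2 of Fscn1, and at least 500 CPM of both together (CPM, the UMIs of a gene per 1000000 UMIs of the cell). It also had to have at least 500 detected genes, at most 10% mitochondrial UMIs, at least 2% of UMIs from Cd74, H2-Aa, H2-Ab1 and H2-Eb1 (the MHC class II part), fewer than 3 Cd3 UMIs and under 0.1% of UMIs from Krt14, Krt5, Krt1 and Krt10. By this rule 231 cells of 25062 were positive. The cells were thus selected on measured values, and every difference below that involves the genes of the same cells is a description.

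Ccr7 encodes the receptor that guides mature dendritic cells along CCL19 and CCL21 gradients into lymphatic vessels and on to the draining lymph node. Fscn1 encodes fascin, which bundles actin filaments and is made by mature dendritic cells as they extend processes and move. An LC that leaves the epidermis is known to lose the E-cadherin contacts that hold it to keratinocytes and to take up a maturation programme that includes Ccl22, a chemokine for regulatory T cells, Il4i1, a secreted amino acid oxidase, and Cacnb3, a subunit of voltage-gated calcium channels.

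The series held 3 droplet libraries of cells enriched for LCs from ear epidermis of male CD1 mice (an outbred stock). The untreated library came from mice that received the depilatory cream only. The croton oil library came from mice given this irritant plant oil with acetone and olive oil, and the microneedle library from mice whose ear skin had been punched repeatedly with a microneedle array. Treated skin was taken 48 hours after treatment began. Epidermis was lifted with trypsin, so cells already in the dermis or lymph node were outside the sample, and dead-cell removal and magnetic LC enrichment preceded loading. The labels do not state how many animals entered a library. Each group is 1 library, so no comparison between groups has a replicate check, no test was run and intervals cover counting error only.

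Positive cells numbered 12 in the untreated library, 201 in the croton oil library and 18 in the microneedle library. They were set against cells of the same library that passed the same gate with 0 Ccr7 and 0 Fscn1 UMIs, here called 0-UMI cells: 9347, 5969 and 5508 in the same order. The median positive cell held 13194.5, 15920 and 34594 UMIs, against 11614, 12458 and 17383 in 0-UMI cells. Scrublet, which scores how much a droplet looks like 2 cells, put 69 of 201 croton oil positive cells (34.3%) and 11 of 18 microneedle ones (61.1%) in its highest-scoring share, but 0 of 12 untreated ones. In 0-UMI cells these shares were 7.96%, 5.78% and 5.77% in the order untreated, croton oil, microneedle. The highest-scoring positive cells had median depths of 25798 UMIs in croton oil and 36495 in microneedle, above the 13784.5 and 30593 of the other positive cells. Whether depth or droplets with 2 cells shaped the differences below was not tested. Values without the highest-scoring droplets are given beside many of them. For single genes and lists these droplets were left out of the positive cells only, unless a sentence says both classes, and for shares and counts over all genes out of both classes. Without them the microneedle library kept 7 positive cells and the croton oil library 132. Of the cell barcodes, 32 were shared between the untreated and croton oil libraries, 17 between untreated and microneedle and 13 between the treated libraries; 1 croton oil positive cell had a barcode that also occurred in the untreated library.

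The promoters of the leading genes are shown first, because these genes were higher together in the positive cells of both treated libraries. Of the 17 genes that were markers or among the 15 most raised in both libraries, 14 had an entry among the RefSeq promoter windows (GRCm38.p6, 250 bases before to 50 after a start site). The 250 bases before the start are printed for 4 of them, all on the plus strand: Ccl22 as the leading chemokine, and Cacnb3, Mir155hg (the host transcript of microRNA 155) and Mylk (myosin light chain kinase) as the windows that held a searched motif. They lie at chr8:94745434-94745683, chr15:98632078-98632327, chr16:84712773-84713022 and chr16:34784700-34784949 in that order. Capitals mark motif letters.

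Ccl22: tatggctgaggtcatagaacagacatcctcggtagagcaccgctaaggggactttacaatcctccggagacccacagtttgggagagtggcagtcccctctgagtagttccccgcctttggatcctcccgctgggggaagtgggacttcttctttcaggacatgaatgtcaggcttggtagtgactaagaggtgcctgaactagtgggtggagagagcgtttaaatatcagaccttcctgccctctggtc
Cacnb3: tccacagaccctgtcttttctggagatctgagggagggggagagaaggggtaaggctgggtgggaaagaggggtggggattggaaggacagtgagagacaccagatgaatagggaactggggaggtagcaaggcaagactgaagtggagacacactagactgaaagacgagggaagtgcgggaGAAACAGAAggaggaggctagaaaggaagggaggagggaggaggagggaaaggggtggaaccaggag
Mir155hg: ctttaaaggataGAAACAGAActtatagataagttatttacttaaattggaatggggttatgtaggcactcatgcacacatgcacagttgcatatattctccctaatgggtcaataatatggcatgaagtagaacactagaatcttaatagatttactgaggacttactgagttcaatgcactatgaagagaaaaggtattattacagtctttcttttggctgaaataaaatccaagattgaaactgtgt
Mylk: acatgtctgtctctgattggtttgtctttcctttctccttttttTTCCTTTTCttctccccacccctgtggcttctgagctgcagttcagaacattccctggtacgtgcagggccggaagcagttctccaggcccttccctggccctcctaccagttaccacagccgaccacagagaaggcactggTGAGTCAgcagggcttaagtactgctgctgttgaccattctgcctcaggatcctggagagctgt

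The letters searched on both strands were GGANTTTCC for NF-kB, TGANTCA for AP-1, GAAANNGAA for the interferon-stimulated response element and CACGTG for the E-box. The interferon-stimulated response element letters occurred in 3 of the 15 windows of these 14 genes (20%), against 8.56% of all 32851 windows outside chromosome 18. They stood at -67 to -59 relative to the start of Cacnb3, at -238 to -230 of Mir155hg, and on the minus strand at -206 to -198 of Mylk. AP-1 letters occurred in 1 window (6.67%, against 7.81% of all), that of Mylk at -64 to -58. NF-kB and E-box letters occurred in 0 of the 15 windows, against 1.25% and 7.15% of all. With 15 windows these are descriptions of the letters only.

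In the untreated library 0.127% of the gated cells were positive (exact binomial 95% interval 0.0657 to 0.222), as were 3.04% after croton oil (2.64 to 3.48) and 0.317% after microneedle treatment (0.188 to 0.501). Without the highest-scoring droplets the shares were 0.138%, 2.15% and 0.131%, and in cells of at most 25000 UMIs 0.111%, 2.55% and 0.0820%, with the microneedle value under the untreated one in both cases. In all cells the croton oil share stood above both others and its interval overlapped neither, while the untreated and microneedle intervals overlapped. Because deeper cells reach 2 UMIs more easily, each cell was also thinned to 5000 UMIs, which left out 329, 158 and 148 shallower cells. The share with at least 2 UMIs of each gene was then 0.0658% (0.0242 to 0.143), 2.17% (1.83 to 2.56) and 0.181% (0.0869 to 0.333), in the same order. Keratinocyte-gated cells held Fscn1 UMIs in 2 of 91, 86 of 184 (62.3 CPM) and 14 of 52 cells (25.8 CPM), in the order untreated, croton oil, microneedle, and Ccr7 UMIs in 0, 17 and 1, so they are no blank for Fscn1. By the rule they gave (7, 22 and 14 shallower cells left out) 0 of 84, 1 of 162 (0.617%, 0.0156 to 3.39) and 0 of 38 after thinning, and their medians were 27185, 51169 and 27096 UMIs. Neutrophil-gated cells, with medians of 3281 and 3358.5 UMIs, gave 2 of 46 in croton oil (4.35%, 0.531 to 14.8) and 0 of 108 in microneedle, with 161 and 298 left out. These few cells gave wide intervals that covered the shares of gated cells. The neutrophil gate set no limit on keratin, Ccr7 or Fscn1 UMIs. It could thus take in keratinocytes and Ccr7 Fscn1 cells that fell short on MHC class II. These gates therefore cannot decide whether the shares stood above the level in other cell types. Genes outside the rule varied in how they differed between the classes. At 5000 UMIs, 77.3% of croton oil positive cells held a Ccl22 UMI, against 2.01% of 0-UMI, 4.94% of keratinocyte-gated and 0 of 46 neutrophil-gated cells. In the same cells without thinning it was 92.4%, 4.16%, 11.1% and 8.70%. Epcam was found at 5000 UMIs in 66.7% of positive, 96.7% of 0-UMI and 67.9% of keratinocyte-gated cells of croton oil.

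**Figure D1:**
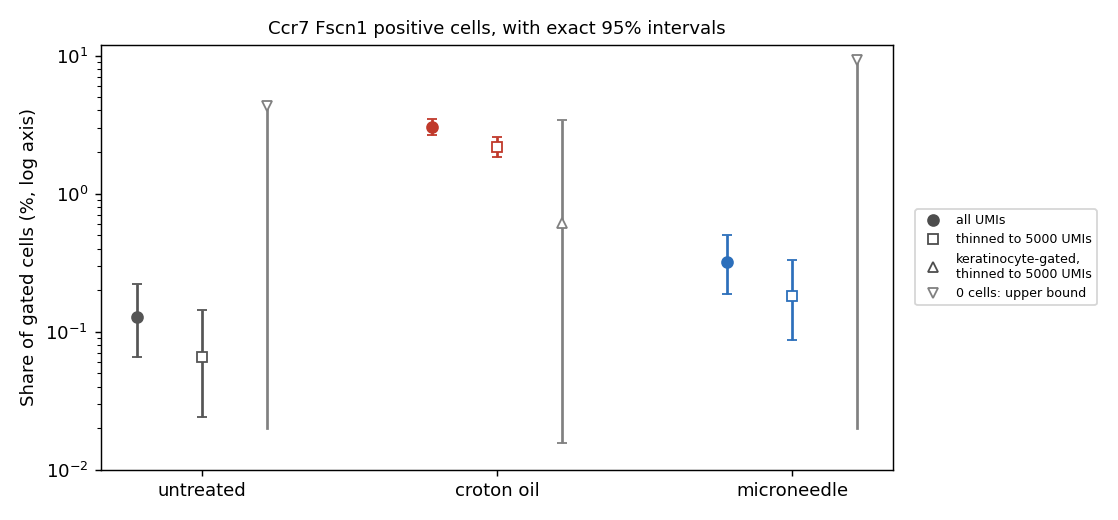
Share of gated cells (%, log axis) that were Ccr7 Fscn1 positive in each library, with exact 95% binomial intervals: filled circles for all UMIs, open squares after thinning each cell to 5000 UMIs, and grey triangles for keratinocyte-gated cells treated the same way, pointing down where the mark is the upper bound for 0 cells. The croton oil share (3.04%) stood above the untreated (0.127%) and microneedle (0.317%) shares.

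Cells near the thresholds of the rule were as follows. In croton oil 2 cells lay just inside the level minimum (500 to 600 CPM) and 4 just outside it (400 to 500); in microneedle 1 and 2 cells, and in untreated 1 and 0. The 2 croton oil cells inside held 615 CPM of Ccl22 and the 4 outside 821. In microneedle the 1 cell inside held 0 CPM of Ccl22 and 21.0 of Il4i1, and the 2 outside 2973 and 640. Along the MHC class II minimum, 38 croton oil cells lay just inside (2 to 2.5%) and 36 just outside (1.5 to 2%), with Ccl22 at 572 and 680 CPM and Cd207, which encodes langerin, at 242 and 99.6 CPM. In microneedle there were 8 and 7 such cells, with Ccl22 at 846 and 1357 CPM, and in untreated 2 and 1. For a class of cells, CPM was computed from the UMIs summed over its cells.

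The label of migratory LCs was checked against markers. Positive cells held Cd207 at 349 (untreated), 303 (croton oil) and 334 CPM (microneedle), against 572, 313 and 461 CPM in 0-UMI cells. At 5000 UMIs a Cd207 UMI was found in 55.1% of positive cells after croton oil and 61.1% after microneedle treatment, against 58.2% and 78.6% of 0-UMI cells and 3.70% and 13.2% of keratinocyte-gated cells. All 6 LC markers reached 20 CPM in the positive cells of each library, and together came to 3712, 3679 and 3607 CPM, against 3884, 5248 and 4529 CPM in 0-UMI cells, in the order untreated, croton oil, microneedle. Mfge8 carried much of these sums, with 2852, 2238 and 1697 CPM, while Epcam, Cdh1, Ltc4s and Csf1r were each below the 0-UMI level in every library. In untreated positive cells Epcam was at 220 against 1541 CPM and Ltc4s, leukotriene C4 synthase, at 182 against 624. Clec9a of type 1 conventional dendritic cells was at 0 in the positive cells of all 3 libraries, and Xcr1 at 0 in the untreated and microneedle ones. The whole set of 6 type 1 markers, which holds Batf3 and Cadm1, came to 148, 413 and 237 CPM against 355, 384 and 374 in 0-UMI cells, with Batf3 at 43.0, 126 and 54.4 against 6.47, 21.7 and 5.14. The 6 markers of type 2 or dermal dendritic cells came to 148, 471 and 148 CPM against 349, 604 and 242, with Mgl2 at 334 against 338 CPM in croton oil. The 4 plasmacytoid dendritic cell markers came to 234, 179 and 316 CPM against 133, 161 and 157, mostly Tcf4 and Bst2, with Siglech at 0 in all 3 libraries. The part of such cells in the results was not tested. The 7 monocyte and macrophage markers came to 57.3, 599 and 366 CPM, each time under the 100, 1663 and 584 CPM of 0-UMI cells. B cell markers came to at most 9.55 CPM and fibroblast markers were at 0. T cell markers came to no more than 5.42 CPM and keratinocyte markers to no more than 62.1 CPM. The Cd3 genes, Krt14, Krt5, Krt1 and Krt10 among them check nothing, since the rule limited their UMIs. Of the markers it did not name, Trdc, Trac, Trbc1 and Cd7 each stood at no more than 3.30 CPM. Krt15, Sfn and Perp each stood at no more than 10.0 CPM.

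The 3 markers outside the rule stood far above 0-UMI cells in every library. Ccl22 was at 5370 CPM (exact Poisson 95% interval 5060 to 5693) in untreated, 692 (665 to 719) in croton oil and 977 (900 to 1059) in microneedle positive cells. In 0-UMI cells it was at 8.70, 6.23 and 4.39 CPM. The 12 untreated positive cells ranged from 1793 to 16612 CPM of Ccl22, with a median of 4012, and all 12 held it. The croton oil cells ranged from 0 to 4319 with a median of 410 (184 of 201 with a UMI), and the microneedle cells from 0 to 4928 with a median of 723 (16 of 18). Ccl22 was thus highest per cell in the library with the fewest positive cells.

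Il4i1, whose enzyme product breaks down phenylalanine and other amino acids outside the cell, stood at 1022, 713 and 410 CPM in the positive cells of the same libraries, against 2.53, 8.15 and 2.59 CPM in 0-UMI cells. Cacnb3 was at 526, 384 and 402 CPM, against 0.339, 8.23 and 1.23. On the scale log2((CPM + 5)/(CPM + 5)), which understates the change of low genes, positive over 0-UMI cells gave 5.96, 5.77 and 4.88 for Ccl22, Il4i1 and Cacnb3 in croton oil and 6.71, 5.77 and 6.03 in microneedle. All 3 changes were larger without the highest-scoring droplets, at 6.24, 6.24 and 5.11 in croton oil and 7.75, 6.66 and 6.21 in microneedle. The selected genes Ccr7 and Fscn1 were at 828 and 1134 CPM in croton oil, 567 and 984 in microneedle and 511 and 1772 in untreated positive cells, which the rule fixed in part.

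**Figure D2:**
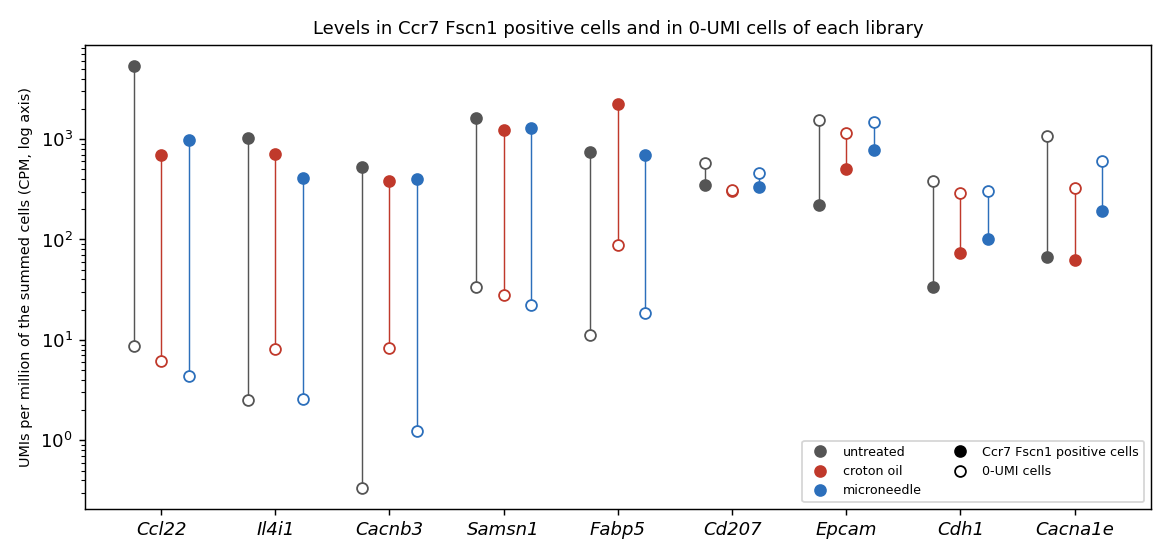
Level (CPM of the summed cells, log axis) of 9 genes in Ccr7 Fscn1 positive cells (filled) and 0-UMI cells (open) of the 3 libraries. Ccl22, Il4i1, Cacnb3, Samsn1 and Fabp5 were higher in the positive cells of every library, Cd207 was close to the 0-UMI level in croton oil, and Epcam, Cdh1 and Cacna1e were lower.

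Across all genes with at least 20 CPM in either class and leaving out Ccr7 and Fscn1, 391 of 6629 genes were at least 2-fold higher in croton oil positive cells (5.90%) and 441 at least 2-fold lower (6.65%). In microneedle 502 of 6948 were higher (7.23%) and 371 lower (5.34%). With the highest-scoring droplets left out, croton oil gave 474 higher genes and 874 lower ones, and the 7 remaining microneedle cells gave 967 and 1230. Of the 6332 genes compared in both libraries, 286 were higher in both (4.52%) and 158 lower in both (2.50%), and 0 went opposite ways. Leaving out the highest-scoring droplets gave 331 higher and 526 lower in both, keeping cells of at most 25000 UMIs 303 and 475, and thinning each cell to 5000 UMIs 297 and 287. The shared higher genes were 79.9% of croton oil's 358 and 73.1% of microneedle's 391, and the shared lower genes 37.4% of 423 and 47.6% of 332, all with the droplets kept. Over these genes the changes in the treated libraries correlated with Pearson's r = 0.836 and Spearman's rho = 0.707; genes are not replicates, and the points share the selection on Ccr7 and Fscn1.

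**Figure D3:**
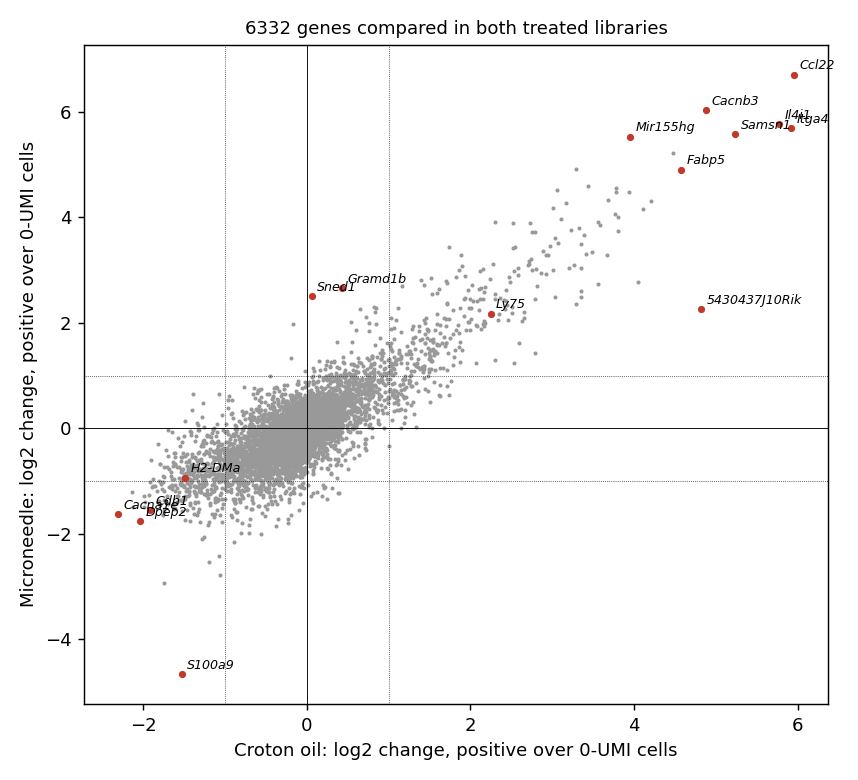
Change from 0-UMI to Ccr7 Fscn1 positive cells (log2, pseudocount 5 CPM) in croton oil (horizontal) and microneedle (vertical) for 6332 genes, 1 point a gene, with 2-fold marked by dotted lines. The named migration genes lie at the upper right in both, 5430437J10Rik was further from 0 in croton oil (4.82 against 2.26), and Sned1 and Gramd1b in microneedle (2.51 and 2.66).

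The genes most raised in both libraries reached beyond the known markers. Itga4, the alpha 4 integrin chain that binds VCAM1 and fibronectin, was at 373 CPM in croton oil positive cells against 1.27 in 0-UMI cells, and at 717 against 8.97 in microneedle. In the untreated library it stood at 707 against 12.6 CPM. Without the highest-scoring droplets it was at 376 CPM in croton oil and 1190 in microneedle positive cells. Samsn1, an adaptor protein of leukocytes, was at 1226 against 27.8 CPM in croton oil, 1298 against 22.3 in microneedle and 1610 against 34.0 in untreated. Neutrophil-gated cells held it at 772 CPM in croton oil (181 of 207 cells) and 1867 in microneedle (383 of 406). Every positive cell of the 3 libraries held a Samsn1 UMI.

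Fabp5, a fatty acid binding protein, was at 2209 CPM in croton oil positive cells against 88.1 in 0-UMI cells, at 695 against 18.3 in microneedle and at 736 against 11.3 in untreated. In microneedle 38.9% of its UMIs came from 1 cell. Fabp5 was higher still in keratinocyte-gated cells, at 6999, 3582 and 1713 CPM in the same order, and was at 12007 CPM in croton oil and 552 in microneedle neutrophil-gated cells. The croton oil neutrophil-gated cells also held keratinocyte markers at 10311 CPM, against 818 in microneedle. Their Fabp5 level, from 106 of 207 cells, is thus not one of neutrophils alone. Without the highest-scoring droplets the positive cells held 2640 CPM in croton oil and 1433 in microneedle. Rftn1, a lipid raft protein, was at 355, 364 and 683 CPM in the positive cells of croton oil, microneedle and untreated, against 11.1, 4.83 and 2.17. Chst11, a chondroitin sulfotransferase, was at 354, 323 and 253 CPM against 15.9, 13.4 and 3.26. Without the highest-scoring droplets Rftn1 was at 434 CPM in croton oil and 634 in microneedle positive cells. Neutrophil-gated cells held Chst11 at 218 CPM in croton oil and 750 in microneedle. Rftn1 and Chst11 levels in positive cells lay less than 2-fold apart across the libraries, while Fabp5 was highest in croton oil.

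Mir155hg was at 157 CPM in croton oil, 333 in microneedle and 301 in untreated positive cells, against 5.54, 2.30 and 0.941. It was held by 75 of 201, 10 of 18 and 5 of 12 cells. Without the highest-scoring droplets it was at 92.1 CPM in croton oil and 689 in microneedle. Ccl17, the other ligand of the receptor that binds CCL22, was at 197, 135 and 354 CPM against 9.81, 1.31 and 25.2. Its UMIs were concentrated, with 21.8%, 42.7% and 73.0% of them in 1 cell of croton oil, microneedle and untreated. The membrane-anchored protease gene Mmp25 was at 208, 290 and 459 CPM against 10.6, 12.6 and 5.93, and was found in 176 of 201, 18 of 18 and 12 of 12 cells. The remaining genes of the 15, which were Fxyd2 (a sodium pump regulator), Mylk, Serpinb6b (a serpin) and Ankrd33b, had log2 changes between 3.77 and 4.56. Without the highest-scoring droplets these ran from 3.35 (Mylk) to 4.54 (Fxyd2) in croton oil. In microneedle they then ran from 4.79 (Serpinb6b) to 5.61 (Ankrd33b). Of the 15, Samsn1, Chst11 and Ankrd33b in microneedle and Fabp5 and Ankrd33b in croton oil were higher in neutrophil-gated than in positive cells. The rest were lower there in both libraries.

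Cdh1, which encodes E-cadherin and was among the 15 genes lowest in both libraries, was at 72.9 CPM in croton oil positive cells against 290 in 0-UMI cells, at 101 against 305 in microneedle and at 33.4 against 384 in untreated. The log2 changes were -1.92 and -1.56 in the treated libraries, and -4.23 and -2.83 without the highest-scoring droplets. Among positive cells Cdh1 was at 137 CPM in the highest-scoring droplets and 10.7 in the rest in croton oil, and at 127 and 38.6 in microneedle.

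Cacna1e, a voltage-gated calcium channel chain, was at 62.3 against 328 CPM in croton oil, 191 against 600 in microneedle and 66.9 against 1061 in untreated. Marchf1, the ubiquitin ligase that removes MHC class II and CD86 from the surface, was at 36.9 against 115, 61.0 against 189 and 33.4 against 350 CPM. Without the highest-scoring droplets the croton oil changes were -4.51 for Cacna1e and -3.97 for Marchf1, against -2.31 and -1.52 with them. The microneedle changes were then -2.54 and -1.57, against -1.63 and -1.56. Both genes were lower in the positive cells of all 3 libraries.

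Dpep2, Arhgap15, Sult1a1, Cracr2b, Acer3, Fhdc1, Fgf13, Wdfy4, Gabbr1 and Cass4 completed this set with log2 changes from -2.12 to -1.46 in croton oil and from -1.76 to -1.48 in microneedle. These ranges did not hold without the highest-scoring droplets. Dpep2, Arhgap15 and Sult1a1 were then at -3.73, -3.07 and -3.02 in croton oil and at -3.34, -1.23 and -1.63 in microneedle. Wdfy4 had 4 UMIs in microneedle, and its change there became 0.37 when cells were thinned to 5000 UMIs. S100a8 and S100a9, abundant transcripts of neutrophils, were also in it. The microneedle change of S100a8, from 3 UMIs, was -2.93, -2.24 with the highest-scoring droplets removed from the positive cells only and 0.15 with them removed from both classes. S100a9 was at 29.8 against 95.3 CPM in croton oil, and at 0 UMIs against 122 CPM in microneedle. In untreated positive cells S100a8 and S100a9 had 3 and 2 UMIs, each from 1 cell, or 14.3 and 9.55 CPM against 0 and 0.119 in 0-UMI cells, the opposite direction. The neutrophil markers together came to 65.3 CPM in croton oil positive cells and 4.94 in microneedle, against 206 and 205 CPM in 0-UMI cells, and their part in this difference was not tested.

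The gene lists were read against all genes compared, with a median change of -0.14 (croton oil) and -0.08 (microneedle). With the highest-scoring droplets left out of the positive cells, the croton oil cells gave 6.79% of the same 6629 genes as higher and 13.2% as lower, and the microneedle cells 10.2% and 17.7% of 6948, which is the background for each list count given without them. In the list of the migratory mature dendritic cell programme, which was put together knowing such genes and holds the markers, 27 of 32 genes compared were at least 2-fold higher in croton oil and 1 lower (median 2.21), and 27 of 34 higher and 0 lower in microneedle (median 2.72), where Il12b and Ebi3 came mostly from 1 cell each. Traf1, a signalling adaptor of TNF receptors, was at 394 against 35.0 CPM in croton oil and 371 against 21.9 in microneedle. Socs2, a brake on cytokine signalling, was at 149 against 13.9 and 95.6 against 3.21 CPM. Tnfrsf9, the costimulatory receptor 4-1BB, was at 1794 against 481 CPM in croton oil and 702 against 67.2 in microneedle. The 1 lower gene was Cst7, an inhibitor of cathepsins, at 8.40 against 27.1 CPM in croton oil.

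**Figure D4:**
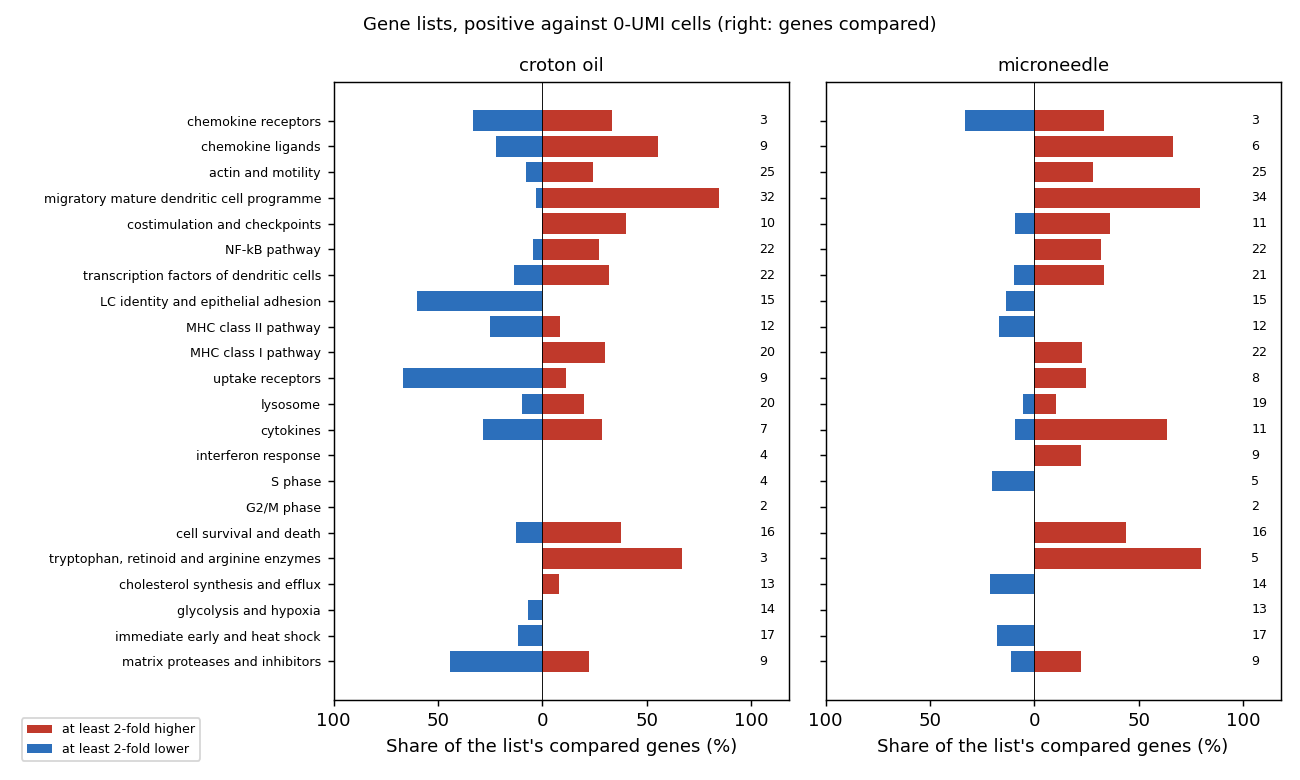
Share of each list's compared genes (%) that were at least 2-fold higher (red, to the right) or lower (blue, to the left) in Ccr7 Fscn1 positive than in 0-UMI cells of the croton oil and microneedle libraries, with the number of genes compared at the right. The migratory programme list stands out to the right in both, with 27 of 32 and 27 of 34 genes, and the LC identity list points left with 9 and 2 of 15. The MHC class II list includes Cd74, H2-Aa, H2-Ab1 and H2-Eb1, which the rule used.

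Among chemokine ligands 5 of 9 were higher and 2 lower in croton oil (median 1.74), and 4 of 6 higher and 0 lower in microneedle (3.43). Beside Ccl22 and Ccl17 these were Ccl5, which draws T cells, and Cxcl1, which draws neutrophils, in both libraries, and Ccl9 in croton oil. Cxcl1 was at 395 against 115 CPM in croton oil, 656 against 56.2 in microneedle and 564 against 17.0 in untreated. The lower ones were Ccl3 and Ccl4, inflammatory chemokines, at 11.9 against 35.6 and 2.98 against 38.1 CPM in croton oil. Of 3 chemokine receptors compared, Cxcr4, which binds CXCL12 and takes part in LC migration, was higher in both, at 101 against 14.2 and 61.0 against 4.04 CPM. Ccr1, a receptor of inflammatory chemokines, was lower in croton oil at 14.1 against 82.4 CPM, and Ccrl2, of the same list, was lower in microneedle.

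Costimulation and checkpoint genes were higher in 4 of 10 cases and lower in 0 in croton oil (median 0.57), and higher in 4 of 11 and lower in 1 in microneedle (0.56). The counts were 4 and 1, and 5 and 2, once the highest-scoring droplets were left out. Cd40, the receptor for T cell help, was at 239 against 69.2 CPM in croton oil, 555 against 78.1 in microneedle and 750 against 90.9 in untreated. Cd274, which encodes the inhibitory ligand PD-L1, was at 170 against 12.1, 56.0 against 5.80 and 229 against 2.19 CPM. Cd86, a main ligand of CD28, did not follow, at 2847 against 3940, 3378 against 5639 and 2293 against 4514 CPM. Its log2 changes of -0.47 and -0.74 stayed within 2-fold.

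In the NF-kB list 6 of 22 genes were higher and 1 lower in croton oil (median 0.65), and 7 of 22 higher and 0 lower in microneedle (0.78). After leaving out the highest-scoring droplets these were 8 and 1, and 14 and 2 (medians 0.86 and 1.09). Icam1, an adhesion molecule, and Tank, an adaptor of TRAF proteins, were higher in both along with Traf1 and Nfkb1. Relb, a subunit of the non-canonical pathway, was at 418 against 200 CPM in croton oil and 433 against 279 in microneedle, on either side of the 2-fold line at 1.05 and 0.63. Among transcription factors of dendritic cells 7 of 22 were higher and 3 lower in croton oil (median 0.16), and 7 of 21 higher and 2 lower in microneedle (0.57). The 7 were Stat4, Etv3, Batf3, Stat5a, Bhlhe40, Irf8 and Zbtb46 in both libraries, with Stat4 at 68.8 against 3.19 CPM and 189 against 5.0. Cebpb, a factor of myeloid cells, was among those lower in both, and Hdac9 was lower in croton oil.

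LC identity and epithelial adhesion genes were lower in 9 of 15 cases and higher in 0 in croton oil (median -1.10), and lower in 2 of 15 and higher in 0 in microneedle (-0.58). Without the highest-scoring droplets 10 and 9 of the 15 were lower and 0 and 1 higher, and the medians were -1.51 and -1.56, the microneedle values coming from 7 cells. Epcam, the adhesion molecule that marks LCs, was at 499 against 1151 CPM in croton oil, 786 against 1479 in microneedle and 220 against 1541 in untreated. Csf1r, the receptor for CSF1 and interleukin 34 that keeps LCs alive, was at 238 against 605, 451 against 624 and 76.4 against 304 CPM. Hpgd, which inactivates prostaglandins, was at 13.3 against 44.1, 23.1 against 89.4 and 62.1 against 448 CPM. Mfge8, a bridge to dying cells, stayed within 2-fold at 2238 against 2179 CPM in croton oil and 1697 against 1196 in microneedle, but stood at 2852 against 459 in untreated.

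Uptake receptors showed 1 gene higher and 6 lower of 9 in croton oil (median -1.53), and 2 higher and 0 lower of 8 in microneedle (-0.40). The microneedle counts were 2 and 2, and the croton oil median -2.60, when the highest-scoring droplets were left out. Ly75, which encodes the endocytic receptor DEC-205, was at 1265 against 263 CPM in croton oil, 1471 against 323 in microneedle and 1591 against 289 in untreated. The lower ones in croton oil included the Fc receptors Fcgr3 and Fcgr2b, the lectin Clec4n and the mannose receptor Mrc1. Fcgr1 in microneedle rested on 14 UMIs, 71.4% of them from 1 cell.

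The rule asked for 2% of UMIs from Cd74, H2-Aa, H2-Ab1 and H2-Eb1, so their levels are a description of the cells it kept and no result. The median share of the 4 genes was 3.26%, 3.34% and 2.66% in untreated, croton oil and microneedle positive cells, against 4.56%, 5.12% and 4.60% in 0-UMI cells. It was 0.216% and 0.123% in the 515 croton oil and 142 microneedle cells that only this minimum left out. Ciita, the class II transactivator, was at 112 against 224 CPM, 160 against 302 and 153 against 267, in the order croton oil, microneedle, untreated. The whole MHC class II list holds Cd74, H2-Aa, H2-Ab1 and H2-Eb1, so its counts and medians draw in part on selected values. Of its 12 genes compared, 1 was higher and 3 lower in croton oil (median -0.62). In microneedle the counts were 0 higher and 2 lower (-0.79). They were 2 and 5, and 1 and 4, without the highest-scoring droplets. H2-DMa, a chain of the peptide editor H2-DM, was at 375 against 1058, 540 against 1040 and 244 against 1148 CPM. In the MHC class I list 6 of 20 genes were higher and 0 lower in croton oil (median 0.64), and 5 of 22 higher and 0 lower in microneedle (0.62). With the highest-scoring droplets left out, 9 and 11 were higher and 0 lower (0.83 and 1.01). H2-K1, a classical class I chain, was at 584 against 171 and 606 against 182 CPM, and Psme2, a proteasome activator subunit, at 373 against 84.4 and 338 against 83.7. H2-Q6 and H2-Q7 are near-identical copies, so their counts are uncertain.

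The MHC class II minimum removed most cells that met the Ccr7 and Fscn1 part of the rule. In croton oil 729 cells met that part, of which 201 were kept, 515 fell short on MHC class II alone, 4 had too many Cd3 UMIs only and 9 failed more than 1 part. In microneedle 161 met it, with 18 kept, 142 short on MHC class II alone and 1 on Cd3. In untreated 13 met it and 12 were kept. Counted without that minimum, the Ccr7 Fscn1 cells were 9.34% of the cells through the rest of the gate in croton oil, 2.40% in microneedle and 0.136% in untreated. This class of low MHC II cells was defined after the values had been seen.

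Many, though not all, of these genes lay further from 0-UMI cells in the low MHC II cells. Ccl22 was at 1405 CPM in croton oil and 1638 in microneedle, Itga4 at 999 and 1783 and Cd40 at 464 and 809. Cdh1 was at 16.7 and 10.1 CPM and Cd207 at 80.7 and 108 CPM. Against 0-UMI cells, croton oil gave 666 of 6795 genes higher (9.80%) and 942 lower (13.9%), and microneedle 800 of 6997 higher (11.4%) and 1054 lower (15.1%). Of the genes higher in positive cells and compared in both, which leaves out 4 of the 391 and 50 of the 502, 369 of 387 (croton oil) and 421 of 452 (microneedle) were also at least 2-fold higher in low MHC II cells, and for 338 of the 387 and 373 of the 452 the change was larger there. Of the lower genes 423 of 441 and 274 of 371 were also at least 2-fold lower. In croton oil Fxyd2 changed by 3.93 in low MHC II against 4.21 in positive cells, S100a8 by -0.46 against -1.74 and S100a9 by -0.72 against -1.53. Both comparisons use the same 0-UMI cells, so they are given side by side only.

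The low MHC II cells had a median of 14748 UMIs in croton oil and 16632 in microneedle, and 4.08% and 6.34% were among the highest Scrublet scores. Their median score was 0.0207 in croton oil and 0.0193 in microneedle, against 0.0389 and 0.206 in positive and 0.0664 and 0.0801 in 0-UMI cells. The LC markers together came to 1374 CPM in croton oil and 1357 in microneedle low MHC II cells, lower than the positive cells' 3679 and 3607.

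The croton oil cells were also split by MHC class II share. Cells at 3% or more, 2 to 3%, 0.5 to 2% and under 0.5% had Ccr7 at 827, 828, 1083 and 1348 CPM, and Ciita at 123, 94.8, 29.4 and 2.17 CPM. Every band was chosen for at least 2 Ccr7 UMIs a cell, so the Ccr7 levels are a description. The bands were cut on MHC class II transcripts, so the levels of Ciita and H2-DMa, genes of the same pathway, are a description too. H2-DMa went from 406 through 330 and 109 to 29.1 CPM, and Cd207 from 346 through 240 and 109 to 67.2. In microneedle Ccr7 was at 449, 607, 965 and 1326 CPM and Ciita at 286, 117, 43.8 and 1.49, over 5, 13, 22 and 120 cells. Between the 2 bands inside the gate the croton oil Ccr7 intervals overlapped, while Ciita and Cd207 were lowest in the cells under 0.5% in both libraries.

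**Figure D5:**
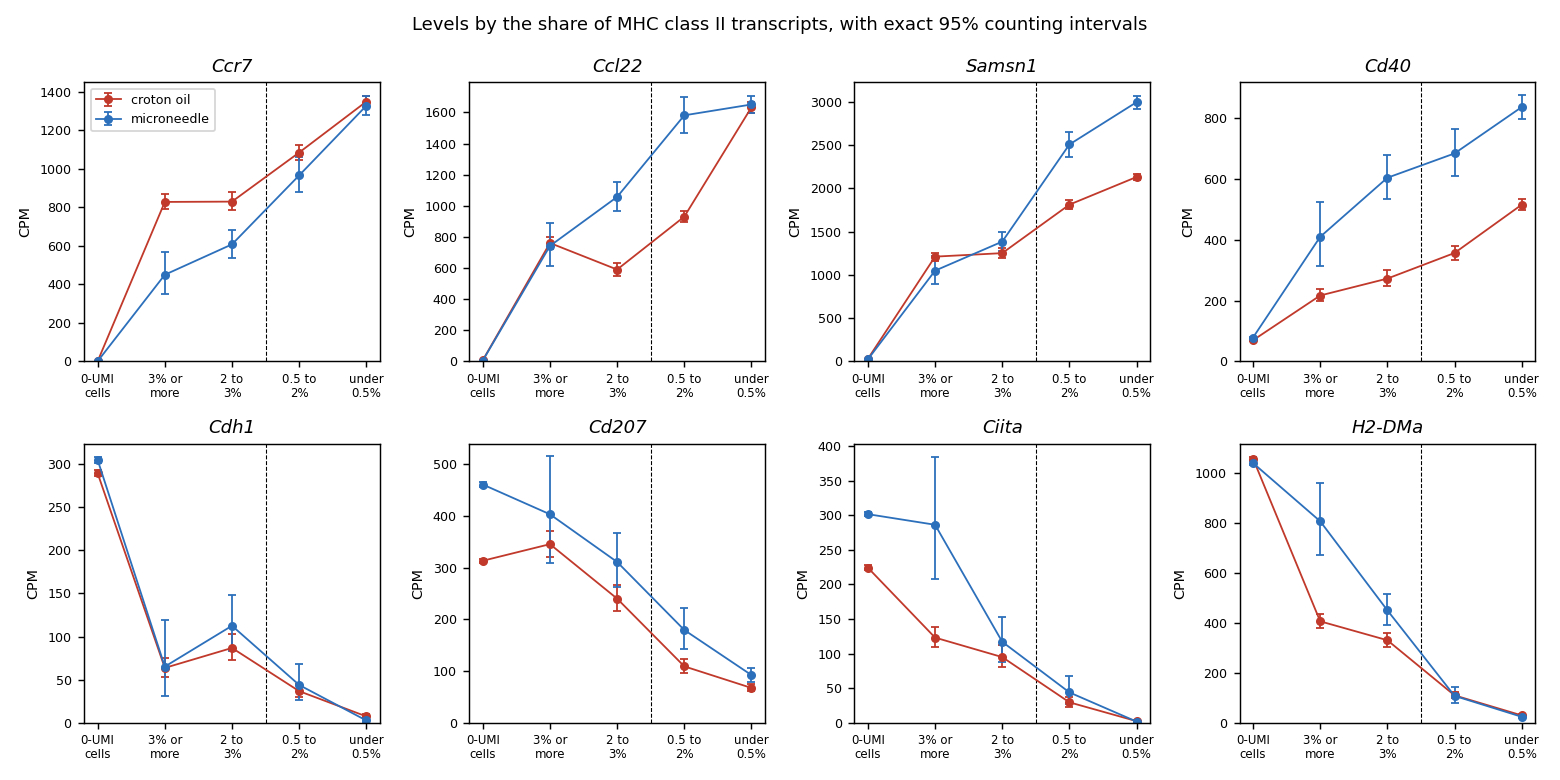
Levels (CPM, with exact 95% Poisson intervals) of 8 genes in 0-UMI cells and in Ccr7 Fscn1 cells split by the share of UMIs from the 4 MHC class II genes, in croton oil (red) and microneedle (blue). The dashed line is the 2% minimum of the rule. Ccr7 was used by the rule and the bands were cut on MHC class II genes, so Ccr7, Ciita and H2-DMa are shown as a description. Ccl22 was highest and Cdh1, Cd207, Ciita and H2-DMa lowest in the cells under 0.5%.

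Among the cytokine genes 2 of 7 were higher and 2 lower in croton oil (median -0.47), and in microneedle 7 of 11 higher and 1 lower (1.19). Removal of the highest-scoring droplets gave 1 and 2, and 7 and 4. Il10, an anti-inflammatory cytokine, was at 110 against 33.2 CPM in croton oil and 62.6 against 10.1 in microneedle, and Il15 was also higher in both. Il12b, a chain of interleukins 12 and 23, was at 165 CPM in microneedle positive cells, but 95.0% of its 100 UMIs came from 1 of 2 cells that held it. All 58 Il23a UMIs were in 1 microneedle cell, and Il12b was at 0 UMIs in the 201 croton oil cells. Il18 and Tnf, an inflammatory pair made by LCs, were lower in croton oil at 90.8 against 297 and 96.8 against 270 CPM.

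Survival genes were higher in 6 of 16 cases and lower in 2 in croton oil (median 0.48), and higher in 7 and lower in 0 of 16 in microneedle (0.73). They included Bcl2a1a, Bcl2a1b and Bcl2a1d, antiapoptotic copies so alike that their counts are uncertain, and the death receptor gene Fas. The 2 lower ones in croton oil were Bcl2 and Bcl2l1, which encode the antiapoptotic proteins BCL2 and BCL-XL, at 14.9 against 52.5 and 75.9 against 175 CPM. Actin and motility genes were higher in 6 of 25 and lower in 2 in croton oil (0.41), and higher in 7 and lower in 0 of 25 in microneedle (0.55). Leaving out the highest-scoring droplets gave 7 higher and 3 lower, and 9 and 4. Marcks, which links actin to the membrane, was at 833 against 116 CPM and 774 against 54.1. Tmsb4x, which holds actin monomers, was at 21128 against 5999 and 13835 against 4937 CPM.

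Tryptophan, retinoid and arginine enzymes were higher in 2 of 3 and 4 of 5 (medians 1.33 and 1.66), with Il4i1 in both, Kynu in croton oil, and Ido1 and Ido2 among those in microneedle. Matrix proteases and inhibitors were higher in 2 and lower in 4 of 9 in croton oil (-0.47), and higher in 2 and lower in 1 of 9 in microneedle (-0.34), with Mmp25 and Adam8 higher and Mmp9 lower in both. Interferon response genes were higher in 0 of 4 and 2 of 9 (0.04 and 0.58), and 78.6% of the microneedle Isg15 UMIs came from 1 cell. S phase genes were lower in 0 of 4 and 1 of 5 and higher in 0, and 0 of 2 G2/M genes passed 2-fold in either library. Immediate early and heat shock genes were higher in 0 of 17 in both and lower in 2 and 3, among them Egr1 in both, with medians of -0.37 and -0.63. Of all genes, 5.90% were higher and 6.65% lower after croton oil, and 7.23% and 5.34% after microneedle treatment, so a count of 1 among 13 to 20 genes, as in the lists that follow, is near the background. Lysosomal genes were higher in 4 and lower in 2 of 20, and higher in 2 and lower in 1 of 19 (0.29 and 0.16). Cholesterol genes were higher in 1 and lower in 0 of 13, and higher in 0 and lower in 3 of 14 (0.39 and 0.19), and glycolysis and hypoxia genes lower in 1 of 14 and 0 of 13 and higher in 0 (-0.29 and -0.19).

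With the highest-scoring droplets left out of the positive cells, 5 and 9 of the 17 immediate early and heat shock genes were lower (medians -0.59 and -1.06), as were 4 and 5 of the glycolysis and hypoxia genes, and 5 interferon response genes were higher in microneedle (median 1.70). Of all genes compared, 13.2% and 17.7% were lower under this setting, and 10.2% were higher in microneedle.

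Where the changes differed most between the treated libraries, few cells often carried the values. 5430437J10Rik, an unnamed transcript, was at 473 against 11.9 CPM in croton oil (177 of 201 cells) and 264 against 51.3 in microneedle, where 49.4% of its UMIs came from 1 cell. Gramd1b, a cholesterol transfer protein, was at 287 against 41.2 CPM in microneedle (11 of 18 cells) and 47.2 against 33.6 in croton oil. Sned1, an extracellular matrix protein, was at 206 against 32.1 and 29.5 against 28.1 CPM, with 40.8% of its microneedle UMIs in 1 cell. Dcstamp, a cell fusion protein, was held by 4 of 18 microneedle cells, and its change of 1.99 there became -0.05 without the MHC class II minimum and -2.42 in cells of at most 25000 UMIs. In those cells the microneedle change of Sned1 was -1.02. Calcrl, a receptor of calcitonin family peptides, was at 0 UMIs in microneedle and 10.8 against 28.1 CPM in croton oil. Slc7a6os, 4732471J01Rik, 2900026A02Rik and Ifi204 rested on 5 to 35 UMIs in microneedle. Without the MHC class II minimum the changes of Slc7a6os and 4732471J01Rik there turned to 0.13 and 0.33, and without the highest-scoring droplets that of 2900026A02Rik turned from 0.66 to -1.92, whether they were removed from the positive cells only or from both classes.

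Compared directly, croton oil positive cells had 161 of 6720 genes at least 2-fold higher than microneedle positive cells (2.40%) and 485 lower (7.22%). The same comparison of 0-UMI cells gave 95 of 6613 higher (1.44%) and 67 lower (1.01%). Without the highest-scoring droplets the positive cells gave 511 higher and 1116 lower, and without the MHC class II minimum, with 716 and 160 cells, 75 higher and 170 lower. The number of positive cells, 18 in microneedle, limits every value of that library, and treatment and library cannot be told apart.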

How the data were processed

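The deposited files hold raw UMI counts per gene and cell barcode of 3' Chromium libraries, and per the file headers Cell Ranger 8.0.0 wrote them; the submitters' processing notes name the build GRCm39. Each library was 1 sample. Per cell gate and library, UMIs were summed and scaled to CPM; genes with at least 20 CPM in either class were compared as log2((CPM + 5)/(CPM + 5)), and at least 2-fold on that scale was called. Counts carry exact Poisson and shares exact binomial (Clopper-Pearson) intervals at 95%, which cover counting error only. Doublets were scored with Scrublet (scanpy 1.11.5), taking the highest 0.8% per 1000 cells of each library, and were kept in the main values; its automatic threshold marked 1 cell in all and was not used. Thinning drew 5000 UMIs per cell. Keratinocyte-gated cells had at least 1% of UMIs from the 4 keratins, neutrophil-gated cells at least 1% from S100a8 and S100a9, and both under 1% from the MHC class II genes. The procedure was tested on simulated data. Code ran in Python 3.11.15 with numpy 2.4.6, scipy 1.17.1, pandas 2.3.3 and matplotlib 3.10.9. Of 34289 features 80 share a symbol with another.

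Named genes were the 5 markers, the 15 with the largest smaller change and the 15 with the most negative larger change of the treated libraries, and 5 each way by the difference between them; for the 22 gene lists, members past 2-fold. The members and lists were chosen with earlier results of these data known. The alternatives were 14 planned and 2 added after seeing the data. Promoter letters were read from RefSeq windows of GRCm38.p6, another build than that of the counts, and joined by gene symbol. A few list members counted in the totals are not reported here by name.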

Additional observations from a re-analysis of the deposited data

How the results depend on the processing

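No paired analysis was possible because each group is 1 library and no replicate numbers exist. Over all alternatives, 931 log2 changes of named genes stayed within their counting error, 310 moved further and 7 reversed, while 601 list medians stayed within 0.25 and 103 moved further. A minimum of 5 or 50 CPM cannot alter the change of a gene, so the 78 changes under each were bound to stay. Under removal of the highest Scrublet scores 21 stayed and 56 moved, and without the MHC class II minimum 16 stayed and 59 moved. Counts and the correlation r moved as follows. Removing the highest Scrublet scores gave shares of 2.15% (croton oil) and 0.131% (microneedle), 874 lower genes in croton oil, 967 higher and 1230 lower in microneedle, 526 lower in both, r = 0.730, and 511 higher and 1116 lower in croton oil against microneedle positive cells. Cells of at most 25000 UMIs, an alternative chosen after seeing the data that left 159 and 4 positive cells, gave 2.55% and 0.0820%, 681 lower, 1217 higher and 1803 lower, 475 lower in both, r = 0.663, and 994 and 1129. Dropping the MHC class II minimum, also chosen after seeing the data, gave 9.34% and 2.40%, 775 lower in croton oil, 888 lower in microneedle, 497 higher and 626 lower in both, r = 0.948, and 75 and 170. Thinning to 5000 UMIs gave 1089 higher and 1078 lower in microneedle, 287 lower in both, r = 0.632, and 735 and 1395. A minimum of 50 CPM gave 334 higher and 221 lower in microneedle, r = 0.884, and 92 and 255; a minimum of 5 CPM gave 625 lower in microneedle, r = 0.751, and 339 and 768. The mean of per-cell CPM gave 247 lower in both. At least 3 UMIs each and 1000 CPM gave a croton oil share of 2.54% and r = 0.812, at least 1 UMI each 3.77% and r = 0.848, and at least 1 Cd207 UMI r = 0.824. The reversed microneedle changes were Wdfy4 (0.37, thinned), S100a8 (0.15, without the highest Scrublet scores), Slc7a6os (0.13), 4732471J01Rik (0.33) and Dcstamp (-0.053) without the MHC class II minimum, and Sned1 (-1.02) and Dcstamp (-2.42) at no more than 25000 UMIs. The microneedle change of 2900026A02Rik also turned sign without the highest Scrublet scores, as given above. It started within 2-fold, so it is not counted among the 7 reversed changes. The causes were not tested; fewer cells remain under several of these settings. TMM scaling, other comparison cells, depth weighting, a pseudocount of 1 CPM, a 5% mitochondrial limit and leaving out mitochondrial and ribosomal genes moved none of these counts by 1.5 times. The untreated and microneedle values rest on 12 and 18 positive cells.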

Other observations

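Within the croton oil positive cells, the share with the highest Scrublet scores was 61.5% at 500 to 1000 CPM of Ccr7 and Fscn1, 33.7% at 1000 to 2000 and 27.0% at 2000 or more. By MHC class II share it was 26.0% at 3% or more, 48.6% at 2 to 3%, 12.03% at 0.5 to 2% and 0.560% under 0.5%.

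Ctsz, a cathepsin, was at 960 against 327 CPM in croton oil and 592 against 187 in microneedle, and Cst3, the cathepsin inhibitor cystatin C, at 28116 against 9848 and 10709 against 4343. Grn, which encodes progranulin, was at 46.6 against 121 and 89.0 against 197 CPM. Of the sterol genes Abca1 and Abcg1, exporters of cholesterol, were lower in microneedle at 11.5 against 54.5 and 97.2 against 254 CPM, while Idi1, an enzyme of sterol synthesis, was higher in croton oil at 275 against 121.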
